A study of Rattus norvegicus with 6 samples.

Results

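miR-192 and miR-194 are small regulatory RNAs whose genes lie side by side, and their mature forms were followed here in the peri-infarct cortex of rats after stroke. Members were taken by name, as every row of the miRNA count table that begins with rno-miR-192- or rno-miR-194-. This gave 3 of the 493 mature miRNAs in the table, namely rno-miR-192-5p, rno-miR-194-5p, and rno-miR-194-3p (rno stands for the rat and is left out from here on), and all 3 were among the 452 that passed the filter on low counts. The 5p and 3p endings name the 2 arms of a hairpin precursor from which a mature miRNA can be cut. The pair was chosen by the fold changes between the groups, with the lower level of miR-194-5p already known, so the comparison of the groups is given for these miRNAs as a description, with no test.

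There were 6 small RNA libraries, each of 1 rat, with 3 for the MCAO group and 3 for the MCAO + rTMS group. All were male Sprague-Dawley rats of 250 to 270 g, and their age is not stated. In both groups the right middle cerebral artery was occluded for 90 min (MCAO) and then reopened. The MCAO rats received no further treatment that the labels name, and their cortex was taken at 7 days. The MCAO + rTMS rats also received repetitive transcranial magnetic stimulation (rTMS), magnetic pulses from a coil over the injured side of the head, at 10 Hz for 10 min a day on 7 consecutive days. Per the methods the pulses came in short trains with longer rests between them, not without pause, and stimulation began on the day after reperfusion. The labels of these rats give no day of tissue collection. The supplement places the miRNA comparison of both groups at 7 days. No sham stimulation of the MCAO rats is named, and rats without a stroke were not analysed here. A transient filament occlusion models a stroke with reperfusion, and the dissected tissue holds neurons, glia, vessels, and blood cells together.

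miR-192 and miR-194 are best known as miRNAs of liver, gut, and kidney epithelium, where hepatocyte nuclear factors drive their genes. They are also known as part of the response to the tumour suppressor p53, which raises transcription of both gene pairs that hold a miR-194 gene. A miRNA finds its target messenger RNAs mainly through its seed, the bases 2 to 8 from the 5′ end, so cluster mates made from 1 transcript but with different seeds repress different sets of targets.

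The mature sequences are shown because the members differ in their seeds and in the number of genes that can make them. They were taken from RefSeq (GRCr8), with the seed in capitals, written 5′ to 3′.

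miR-192-5p: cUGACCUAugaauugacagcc

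miR-215: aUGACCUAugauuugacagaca

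miR-194-5p: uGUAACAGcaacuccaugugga

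miR-194-3p: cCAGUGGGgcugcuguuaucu

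miR-192-5p shared its seed with 1 other rat miRNA among the 693 mature names of the RefSeq table, miR-215, while no other name there carried the seed of miR-194-5p or that of miR-194-3p. Over the first 21 bases, miR-215 differed from miR-192-5p by C1A, A12U, and C20A, where the base of miR-192-5p comes first and position 1 is the 5′ base. miR-215 and miR-192-3p were not analysed here. Among the 451 counted miRNAs that had a sequence, the nearest to miR-192-5p was 9 single-base edits away. The nearest to miR-194-5p and to miR-194-3p were each 8 edits away. Reads of the 3 members were therefore far in sequence from the other counted miRNAs with a known sequence.

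RefSeq places the genes at 2 loci, both on the plus strand of GRCr8. Mir194-2 (chr1:212994024-212994108) and Mir192 (chr1:212994209-212994318) lie 100 bases apart, outside the span of any other listed gene, with the autophagy gene Atg2a nearest. Mir194-1 (chr13:99382716-99382798) and Mir215 (chr13:99382990-99383086) lie 191 bases apart inside the span of Iars2, which encodes a mitochondrial isoleucyl-tRNA synthetase. These coordinates belong to GRCr8, whereas the submitters' processing notes name rn6. The hairpins of the chromosome 1 pair and of the second miR-194 gene follow, with the listed mature miRNAs in capitals.

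Mir194-2: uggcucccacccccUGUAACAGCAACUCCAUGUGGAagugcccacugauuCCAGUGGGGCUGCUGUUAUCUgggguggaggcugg

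Mir192: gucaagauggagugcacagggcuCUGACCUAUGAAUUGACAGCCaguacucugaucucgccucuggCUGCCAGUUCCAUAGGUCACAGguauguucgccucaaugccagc

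Mir194-1: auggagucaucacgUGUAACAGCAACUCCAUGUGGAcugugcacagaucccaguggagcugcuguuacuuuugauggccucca

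The 5p arm of miR-194 is the same 22 bases in both Mir194 hairpins, so its count pools what the chromosome 1 and chromosome 13 genes produce. The 3p arms differ. The stretch of the Mir194-1 hairpin most like miR-194-3p departed from it at 3 of 21 bases (G8A, U19C, and C20U, with the base of miR-194-3p first), shown here with the differing bases in capitals.

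miR-194-3p, from Mir194-2: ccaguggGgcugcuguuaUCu

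best stretch in Mir194-1: ccaguggAgcugcuguuaCUu

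The 3 members were abundant to very different degrees. Total counts ran from 10492610 to 15411620 per library, and 286 of the table's 2958 values were 0, with none between 1 and 9. The members' counts lay between 15 and 2392, and none was 0. Levels are given as CPM, counts per 1000000 of each library's total after scaling with edgeR's TMM factors. With MCAO alone the mean level was 135.9 ± 16.8 CPM for miR-194-5p, 83.2 ± 15.0 CPM for miR-192-5p, and 1.40 ± 0.400 CPM for miR-194-3p (SD, n = 3 each). With MCAO + rTMS the order was different, with miR-192-5p at 91.6 ± 16.0 CPM, miR-194-5p at 29.0 ± 6.55 CPM, and miR-194-3p at 2.12 ± 0.291 CPM (SD, n = 3 each). In each group the ranges of the 3 miRNAs did not overlap with each other. The members are 21 or 22 bases long, so these levels per read are also close to levels per length, but adapter ligation is known to favour some sequences over others, so the order between miRNAs is one of reads and not of molecules.

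**Figure D1:**
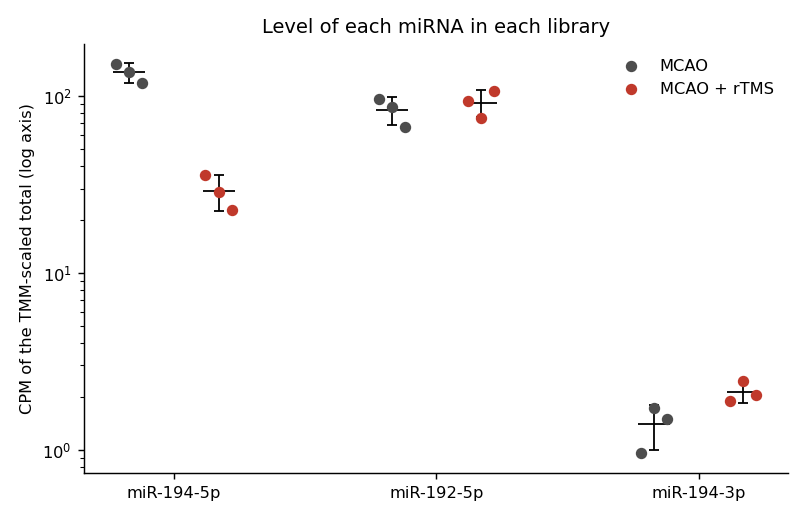
Level of miR-194-5p, miR-192-5p, and miR-194-3p in each library, in CPM of the TMM-scaled total on a log axis. Points are libraries, and the bars give the mean and SD of 3 libraries per group. The miR-194-5p points of the MCAO + rTMS group, from 22.6 to 35.7 CPM, lie below those of the MCAO group, from 118.8 to 152.3 CPM, while the points of miR-192-5p overlap.

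miR-194-5p was lower in the MCAO + rTMS group. It had 2392, 1656, and 1897 counts in MCAO replicates 1, 2, and 3, which is 152.3, 136.6, and 118.8 CPM. It had 475, 341, and 233 counts in MCAO + rTMS replicates 1, 2, and 3, which is 35.7, 28.7, and 22.6 CPM. Every MCAO library was above every MCAO + rTMS library, and the lowest MCAO value was over 3 times the highest MCAO + rTMS value. The log2 fold change of MCAO + rTMS over MCAO was -2.22 (standard error 0.23), a level 4.67-fold lower. Within the libraries, miR-194-5p ranked between 140 and 143 of all 493 miRNAs by count with MCAO alone and between 214 and 243 with MCAO + rTMS. In CPM of the unscaled total its highest level was 182 in MCAO replicate 1 (95% Clopper-Pearson interval 175 to 190). Its lowest was 15.7 in MCAO + rTMS replicate 3 (13.8 to 17.9). Closest across the groups were MCAO replicate 2 at 158 (150 to 166) and MCAO + rTMS replicate 1 at 30.8 (28.1 to 33.7). These intervals cover counting error only, since reads amplified by PCR are not independent molecules, and they are narrow beside the distance between the groups. Whether fewer cells with the miRNA or less of it per cell lie behind a lower level cannot be told apart in dissected tissue.

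miR-192-5p, which is made from the hairpin next to Mir194-2, did not share that difference. Its level was 96.1, 86.8, and 66.6 CPM in MCAO replicates 1, 2, and 3. In MCAO + rTMS replicates 1, 2, and 3 it was 93.1, 75.0, and 106.8 CPM. The groups overlapped, and both the lowest MCAO value and the highest MCAO + rTMS value came from the libraries numbered 3. Its log2 fold change was 0.14 (standard error 0.22) with TMM factors, and it changed direction under other scalings, to -0.49 when the library totals alone were used and to -0.15 with upper-quartile factors. With library totals only the groups also separated, at 92.9 to 115 CPM of the unscaled total with MCAO alone and 64.8 to 80.3 with MCAO + rTMS. The median log2 fold change over all tested miRNAs moved with the scaling as well, from -0.21 with TMM factors to -0.80 with library totals alone and -0.50 with upper-quartile factors. Relative to that median, miR-192-5p stood 0.35 higher with TMM factors, 0.31 higher with the totals alone, and 0.35 higher with upper-quartile factors on the log2 scale. By rank in the library it changed little, from 163, 166, and 181 with MCAO alone to 162, 167, and 151 with MCAO + rTMS.

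miR-194-3p, the less abundant arm, was counted 15, 21, and 24 times in the MCAO libraries, in the order of their numbers, and 25, 29, and 21 times in the MCAO + rTMS libraries. Its level was 0.955, 1.73, and 1.50 CPM with MCAO alone, and with MCAO + rTMS it was 1.88, 2.44, and 2.04 CPM. The groups did not overlap, although the gap between 1.73 and 1.88 CPM is far smaller than counting error at this depth, where a count of 15 has a 95% Poisson interval from 8.40 to 24.7. The log2 fold change was 0.61 (standard error 0.39), but -0.020 when the library totals alone were used, where the groups overlapped. No decrease like that of miR-194-5p was seen in the other arm of its own hairpin, within the limit that so few reads set.

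Over the 3 members, 2 did not overlap between the groups, miR-194-5p on the lower side and miR-194-3p on the higher side. Of the 452 tested miRNAs, 66.8% likewise had groups without overlap, so separation of the groups was common in these libraries. Sorted by log2 fold change, miR-194-5p was at place 27 from the lowest, miR-192-5p at place 273, and miR-194-3p at place 316 of 452. Of the tested miRNAs, 15 were at 0 in all MCAO + rTMS libraries, and their fitted fold changes have no fixed size. Among the 399 miRNAs with no count of 0, miR-194-5p was at place 6 from the lowest, miR-192-5p at place 227, and miR-194-3p at place 268.

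**Figure D2:**
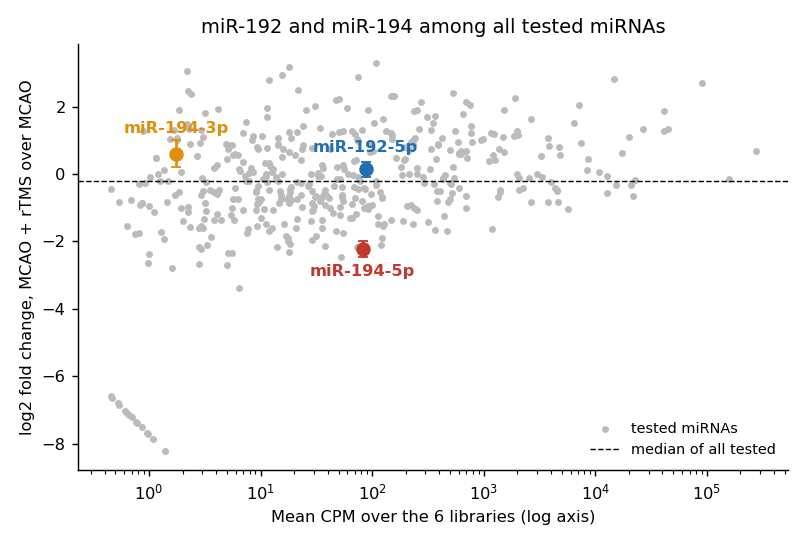
The log2 fold change of MCAO + rTMS over MCAO against the mean CPM over the 6 libraries, on a log axis, for the 452 tested miRNAs in grey, with the 3 members in colour and bars for their standard errors. The dashed line is the median of all tested, at -0.21. At nearly the same mean level, miR-192-5p lies near the median and miR-194-5p near the lower edge, and the row of points at the bottom left are miRNAs listed at 0 in the MCAO + rTMS libraries.

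The ratio of cluster mates within a library does not depend on how libraries are scaled. There were 1.59, 1.57, and 1.78 reads of miR-194-5p for each read of miR-192-5p in MCAO replicates 1, 2, and 3. In MCAO + rTMS replicates 1, 2, and 3 there were 0.384, 0.384, and 0.212. miR-194-5p was thus the larger of the pair in every MCAO library and the smaller in every MCAO + rTMS library, and the 95% interval of each ratio lay on the same side of 1 as the ratio itself. The mean log2 ratio was 0.72 ± 0.10 with MCAO alone and -1.67 ± 0.49 with MCAO + rTMS (SD, n = 3 each), a difference of -2.39, or 5.22-fold. With each library left out in turn, the difference stayed between -2.53 and -2.10. MCAO + rTMS replicate 3 stood apart from the other MCAO + rTMS libraries, with the lowest count of miR-194-5p, and without it the difference was -2.10.

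The ratio of the 5p arm of miR-194 to its 3p arm was also lower in the MCAO + rTMS libraries. For each read of miR-194-3p there were 159, 78.9, and 79.0 reads of miR-194-5p in the MCAO libraries, in the order of their numbers, and 19.0, 11.8, and 11.1 in the MCAO + rTMS libraries. miR-194-5p remained the main arm in every library. It took from 98.7% to 99.4% of the reads of both arms in the MCAO libraries and from 91.7% to 95.0% in the MCAO + rTMS libraries. The widest 95% interval among the MCAO ratios ran from 96.5 to 285, since it rests on 15 reads of the 3p arm. The comparison is not of 1 precursor alone, since the 5p count includes Mir194-1 and the 3p count, by its sequence, is that listed for Mir194-2.

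**Figure D3:**
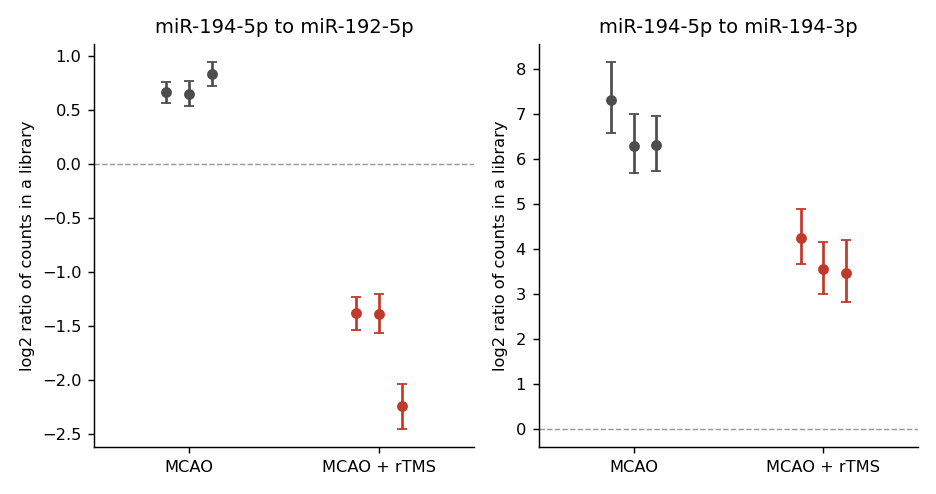
Log2 ratio of counts within each library, for miR-194-5p to miR-192-5p on the left and miR-194-5p to miR-194-3p on the right. Points are libraries, bars are 95% Clopper-Pearson intervals for counting error only, and the dashed line marks equal counts. Both ratios are lower in the 3 MCAO + rTMS libraries than in the 3 MCAO libraries, and the left ratio lies on the other side of 0.

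Unequal change of arms was widespread in these libraries. Of the 149 hairpins with both arms tested, 69 (46.3%) had arms with log2 fold changes of opposite sign, and the median size of the difference between arms was 1.21 on the log2 scale. For miR-194 the difference of 5p minus 3p was -2.83, at place 21 of 149 by size. Among the 123 hairpins with no count of 0 in either arm it was at place 9, where the median size was 1.10. The difference between the arms of miR-194 was therefore among the larger of the hairpins measured, but not the largest.

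**Figure D4:**
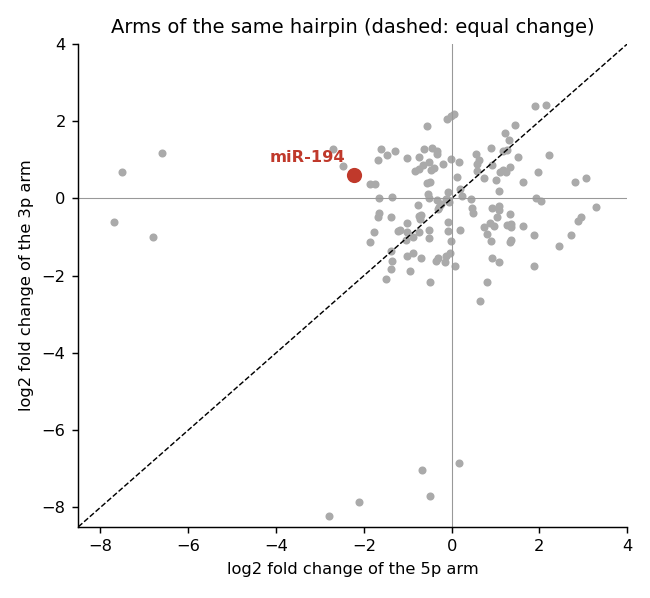
Log2 fold change of MCAO + rTMS over MCAO for the 5p arm (horizontal axis) and the 3p arm (vertical axis) of each of 149 hairpins, with miR-194 in red. The dashed line marks equal change of both arms, and miR-194 lies in the upper left, with a lower 5p arm (-2.22) and a 3p arm at 0.61. Points at the far left or the bottom are arms listed at 0 in all MCAO + rTMS libraries.

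Neighbouring miRNA genes were compared in the same manner, since genes so close together are often transcribed as a unit. There were 76 pairs of adjacent hairpins at most 10000 bases apart on the same strand whose most abundant tested arms differed in name. The median size of the difference in log2 fold change within a pair was 1.06. For Mir194-2 and Mir192 it was 2.36, at place 15 of 76, and at place 10 of the 69 pairs with no count of 0. This pair includes the reads of Mir194-1, so it does not give the change of the chromosome 1 transcript itself.

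The miRNAs whose levels most resembled each member over the 6 libraries were found by Pearson's r of log2(CPM + 1), among the 286 tested miRNAs with a mean count of at least 200. The libraries share their scaling and form 2 groups, so these values only describe likeness. For miR-194-5p they were miR-497-5p (r = 0.996), miR-16-5p (0.995), and miR-376a-5p (0.995), with log2 fold changes of -1.96, -1.55, and -2.31. After the group means were subtracted, r with miR-194-5p was 0.93, 0.997, and 0.84. miR-497-5p and miR-16-5p belong to the miR-15/16 seed family, known for restraining the cell cycle. For miR-192-5p they were miR-187-3p (r = 0.90), miR-148a-5p (0.90), and miR-148a-3p (0.83), of which the last is also an abundant miRNA of liver. For miR-194-3p they were miR-320-3p (0.96), miR-351-5p (0.92), and miR-92b-5p (0.91). No miRNA was named for more than 1 member.

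Other miRNAs linked to p53 were lower in 6 cases and higher in 1. The list held 14 miRNAs, 13 of them tested. By the quasi-likelihood test of edgeR, adjusted over all tested miRNAs by the Benjamini-Hochberg method, 1 rose and 6 fell after rTMS at an adjusted p under 0.05, and 6 did not pass. With the replicate number as a block, 3 of the 13 fell, and 7 were lower at an unadjusted p under 0.05. Among all tested miRNAs 55.3% passed, 27.2% as higher and 28.1% as lower. The median log2 fold change of the list was -0.59, against -0.21 for all. miR-34a-5p, the best known p53 target, had a mean of 117.9 CPM with MCAO alone against 78.5 CPM with MCAO + rTMS, and its change (log2 fold change -0.59, adjusted p = 0.114 in the edgeR test) did not pass. miR-34b-5p, miR-34b-3p, and miR-34c-5p, which come from a second p53-responsive gene, did not pass either, with log2 fold changes of 0.23, 0.069, and -0.033, while the low-count miR-34c-3p fell (-1.40, adjusted p = 0.0112 in the same test).

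Those that fell also included miR-15a-5p (log2 fold change -2.12), miR-16-5p (-1.55), miR-107-3p (-1.42), miR-200c-3p (-1.08), and miR-143-5p (-0.74), with adjusted p from 0.0017 to 0.028 in the same edgeR test. The one that rose was miR-143-3p, a miRNA of smooth muscle, from 2452 to 5131 CPM (log2 fold change 1.07, adjusted p = 0.0199 in the edgeR test). It no longer passed with upper-quartile factors, with the totals alone, with the equal-variance test, or without MCAO replicate 2 or MCAO + rTMS replicate 1. Of the p53-linked list, then, 0 rose in those fits, and at an unadjusted p under 0.05 it was 0 with the totals alone and 1 in each of the others. miR-145-5p and miR-145-3p, which share a gene cluster with miR-143, had log2 fold changes of -0.079 and 0.17 and did not pass. miR-16-3p was counted in 1 MCAO library only and was not tested.

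Since miR-192 and miR-194 are enriched in liver and epithelium, the other miRNAs of those tissues are given beside them. The list held 10 miRNAs, whose summed level was 99.7 to 107.6 CPM in the MCAO libraries and 90.9 to 107.8 CPM in the MCAO + rTMS libraries, and none was at 0 in all 6. Of that sum, miR-10b-5p alone made up 1.72 to 5.07 CPM in the MCAO libraries and 26.5 to 42.3 CPM in the MCAO + rTMS libraries. The like sums therefore do not mean that the rest of the list stayed level. They are also alike only with TMM factors, since per unscaled total every MCAO sum was above every MCAO + rTMS sum. Of the 8 tested, 2 rose and 2 fell in the same edgeR test, where 27.2% of all tested miRNAs passed as higher and 28.1% as lower. The median log2 fold change of the list was -0.44, against -0.21 for all. Those that rose were miR-10b-5p (log2 fold change 3.16, adjusted p = 0.00096 in the edgeR test) and miR-375-3p (1.09), the latter known from endocrine cells. Those that fell were miR-200c-3p (-1.08) and miR-205 (-0.73), a miRNA of stratified epithelium. miR-10a-5p (-0.65), miR-200b-3p (-2.34), and miR-203a-3p (0.32) did not pass. In the edgeR fits with the replicate block, without MCAO replicate 1, and without MCAO + rTMS replicate 1, 0 of the list fell and 1 rose. At an unadjusted p under 0.05, 2, 3, and 3 of the list were lower in those fits. At an adjusted p under 0.05, DESeq2 and limma-voom on all 6 libraries each called 2 lower. Without MCAO replicate 3, MCAO + rTMS replicate 2, or MCAO + rTMS replicate 3, 1 fell.

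miR-122-5p, which defines liver, was at 2.48, 29.6, and 5.07 CPM in the MCAO libraries, in the order of their numbers, against 10.2, 10.2, and 11.1 CPM with MCAO + rTMS. It was high in MCAO replicate 2, where neither miR-192-5p nor miR-194-5p was the highest of its group. miR-200a-3p, a miRNA of epithelium, was at 2.36, 0, and 11.5 CPM in MCAO replicates 1, 2, and 3 and was listed at 0 in all MCAO + rTMS libraries. Its relative miR-429 showed the same, at 0.637, 0, and 4.01 CPM. Both were highest in MCAO replicate 3. The part of other tissues in the levels of miR-192-5p and miR-194-5p was not tested.

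The tissue label was checked with 6 brain miRNAs, which together took 323545 to 420403 CPM in the MCAO libraries and 423234 to 610347 CPM in the MCAO + rTMS libraries, mostly as miR-128-3p and miR-9a-5p. The 5 of the blood-cell list summed to 162 to 329 CPM with MCAO alone and 522 to 643 CPM with MCAO + rTMS, where miR-486 rose and the other 4 fell. The 5 muscle miRNAs summed to 108 to 170 CPM and 254 to 406 CPM, with 2 higher and 3 lower, and the 9 of the choroid plexus list to 528 to 648 CPM and 689 to 1234 CPM, with 2 of the 8 tested lower. With TMM factors these summed levels were higher in the MCAO + rTMS group. They rest on a few abundant miRNAs and on the scaling. The factors were 1.16 to 1.39 in the MCAO libraries and 0.70 to 0.86 in the MCAO + rTMS libraries. Per unscaled total, every MCAO + rTMS brain sum was below every MCAO brain sum. On that scale the muscle and choroid plexus sums overlapped between the groups, and only the blood-cell sums stayed higher without overlap. Of the 5 brain miRNAs tested, 1 was higher and 1 lower. The counts of higher and lower miRNAs are those at an adjusted p under 0.05 in the edgeR test. Of all tested miRNAs 55.3% passed it, 27.2% as higher and 28.1% as lower. Taken over the tested miRNAs of a list, the median log2 fold change was -0.49 for the brain list, -1.38 for the blood-cell list, -1.08 for the muscle list, and 0.15 for the choroid plexus list, against -0.21 for all. The part of these cell types in the level of miR-194-5p was not tested.

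The decrease of miR-194-5p kept its direction in all 16 alternative fits. Its log2 fold change ranged from -2.82 with library totals only to -2.04 without MCAO + rTMS replicate 3, and from -2.17 to -1.80 relative to the median of all miRNAs in the same fit. miR-192-5p ranged from -0.49 to 0.30 and from 0.19 to 0.51 relative to that median. miR-194-3p, which could be fitted in 15 of the 16, ranged from -0.020 to 0.78. In each fit, miR-194-5p lay below both other members that were fitted.

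**Figure D5:**
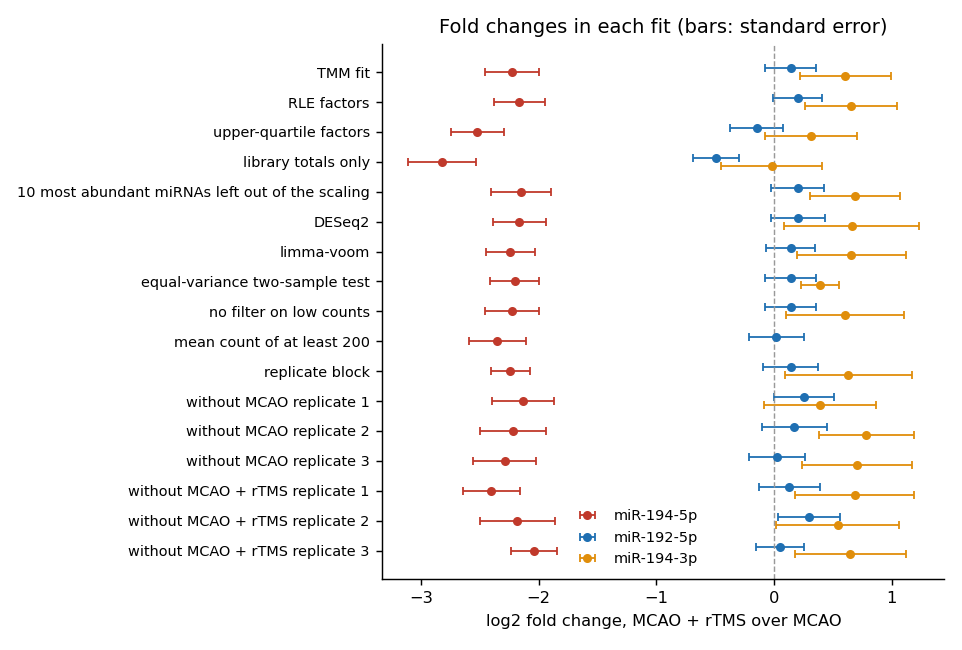
Log2 fold change of MCAO + rTMS over MCAO for miR-194-5p, miR-192-5p, and miR-194-3p in the TMM fit and in each alternative, with bars for the standard error. miR-194-5p lies between -2.82 and -2.04 throughout, while miR-192-5p lies between -0.49 and 0.30 and miR-194-3p between -0.020 and 0.78. Both are below 0 with library totals only, and miR-192-5p also with upper-quartile factors.

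A smaller table of differential expression, of 73 miRNAs, that the authors deposited beside the full one held 1 of the 3 members, miR-194-5p, with the same counts. The paper likewise reports 73 miRNAs past its cuts on fold change, p, and level between these groups.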

How the data were processed

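Small RNA libraries of 3 MCAO and 3 MCAO + rTMS rats were made by the authors with an adapter-ligation kit and sequenced on an Illumina HiSeq machine. The authors deposited raw read counts per mature miRNA, without normalization. The submitters' processing notes name bcl2fastq, BWA, DESeq2, and rn6, and the counting rule is not given in the sources used here.

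Counts were fitted in R 4.3.3 with edgeR 4.0.16 across the miRNAs that passed filterByExpr (452 of 493), with TMM factors, the quasi-likelihood test, and Benjamini-Hochberg adjustment over all of them. The fit was tested on simulated data. A standard error is the size of the log2 fold change divided by the square root of F. Total counts were 10492610 to 15411620 per library, so miRNAs near 10 counts are the least precise. Groups and replicate numbers come from the sample titles, and the labels name no batch. Members and lists were chosen with earlier results of these data known. The miRNAs named are the members, miR-215, the 3 most alike profiles of each member, and the p53-linked and epithelium and liver lists. miR-200c stands in both lists, and miR-34b and miR-34c also in the choroid plexus list. Sequences came from RefSeq (GRCr8), which held 414 of the 452 names. As alternatives the scaling was set by RLE factors, by upper-quartile factors, by the totals alone, or by TMM factors without the 10 highest miRNAs. The model was replaced by DESeq2 1.42.0, by limma-voom of limma 3.58.1, or by a two-sided two-sample test with equal variances. The paper's methods name a test of that kind but not its input, which here was log2(CPM + 1) with TMM factors. Other filters, a replicate block, and leaving out each library were also tried. Intervals and figures used Python 3.11.15, scipy 1.17.1, and matplotlib 3.10.9.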

Additional observations from a re-analysis of the deposited data

How the results depend on the processing

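The labels give no pairing of rats between the groups, and same-numbered libraries did not deviate together (r of their deviations 0.20, -0.12, and -0.11 over 452 miRNAs, with 2 of the 6 libraries closest to their own number). With the replicate block, the log2 fold change was -2.24 for miR-194-5p, 0.14 for miR-192-5p, and 0.63 for miR-194-3p, and 180 miRNAs passed an adjusted p under 0.05 in edgeR's test in place of 250. This count stayed between 179 and 263 over the 16 alternatives and between 179 and 253 with a library left out.

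With library totals only, the log2 fold change was -2.82 for miR-194-5p, -0.49 for miR-192-5p, and -0.020 for miR-194-3p, while upper-quartile factors gave -2.52, -0.15, and 0.31. These shifts go with the median of all miRNAs, and relative to it miR-194-5p was at -2.02 in both. For miR-194-3p it was 0.39 with the equal-variance test, and from 0.39 to 0.78 with a library left out. It could not be fitted with a mean count of at least 200. The left-out ranges were -2.40 to -2.04 for miR-194-5p and 0.023 to 0.30 for miR-192-5p. The difference in log2 ratio of miR-194-5p to miR-192-5p kept its direction in all 7 alternatives.

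In the p53-linked list, 0 rose with library totals only, upper-quartile factors, and the equal-variance test, and 0 to 1 with a library left out. In this list 3 fell with a mean count of at least 200, where only 7 of its 13 were tested, 3 of 13 fell with the replicate block, and 4 to 6 with a library left out. In the epithelium and liver list, 1 rose with library totals only, upper-quartile factors, a mean count of at least 200, and the replicate block, and 1 to 3 with a library left out. In that list 4 fell with upper-quartile factors and 4 with library totals only, 1 with the equal-variance test, 1 with a mean count of at least 200, 0 with the replicate block, and 0 to 3 with a library left out. The mean count filter left 2 of the 8 in the test, miR-10a-5p and miR-10b-5p. It removed miR-375-3p, which rose in the TMM fit, and both miR-200c-3p and miR-205, which fell there. The 1 that fell with this filter was miR-10a-5p, which did not pass in the TMM fit. The cause of the shifts between settings was not tested.

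Spearman's rho has few distinct values over 6 libraries, and 15, 5, and 16 miRNAs reached the rho of the third place for miR-194-5p, miR-192-5p, and miR-194-3p. With all such ties counted, 1, 1, and 2 of the 3 most alike miRNAs were among them. With library totals only, 3, 0, and 1 were shared.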
